A study of Mus musculus with 12 samples.

Results

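The 12 libraries of mouse meninges were ranked by the deposited log2 value of S100a9, a gene that marks neutrophils, and the 4 highest were compared with the 4 lowest across all other genes. The sets were chosen by a measured value, the level of S100a9, so the 2 sets of 4 are not groups of the study, and S100a9 itself is given as a description with no test. The 4 libraries high in S100a9 were, in ranking order, AD_TG replicate 3 at 12.69, AD_B6 replicate 1 at 12.34, AD_B6 replicate 4 at 11.56 and SJL_B6 replicate 2 at 11.11. The 4 libraries low in S100a9 were AD_TG replicate 1 at 9.41, SJL_B6 replicate 1 at 9.14, AD_TG replicate 4 at 8.54 and SJL_B6 replicate 3 at 6.79. Between them lay AD_TG replicate 2 at 11.09, AD_B6 replicate 3 at 10.91, AD_B6 replicate 2 at 9.93 and SJL_B6 replicate 4 at 9.75. The edge of the high set fell between values that hardly differ, 11.11 for SJL_B6 replicate 2 and 11.09 for AD_TG replicate 2. Values below are deposited log2 values in this order of libraries, unless another unit is given.

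The labels name 3 groups of 4 libraries, AD_TG, AD_B6 and SJL_B6, and do not spell out what these names stand for. Every library is labelled strain C57BL/6, age 20 weeks and tissue Meninge. Per the series' design text, the cells are meningeal lymphatic endothelial cells, the lining of the lymph vessels that drain the coverings of the brain, enriched with magnetic beads, with 3 to 4 mice a strain. The labels do not say whether libraries stem from different animals, and each p-value covers the variation between libraries alone, which may be technical. The high set held 2 AD_B6, 1 AD_TG and 1 SJL_B6 library, and the low set held 0 AD_B6, 2 AD_TG and 2 SJL_B6 libraries. A difference between the sets can therefore also hold a difference between label groups, and differences within AD_TG and within SJL_B6, 1 high library against 2 low ones in each, are given for some genes. Prox1, which defines lymphatic endothelium, had no reads in the 4 libraries high in S100a9. In the low set it had reads in SJL_B6 replicate 1 alone, at 8.38. Markers that other meningeal cells carry too were read in all 12 libraries: Pdpn from 7.85 to 10.62, Nrp2 from 7.91 to 10.07 and Nr2f2 from 8.96 to 11.15. Lyve1, a receptor on lymphatic endothelium and some macrophages, had reads in 11 of 12 libraries.

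S100a9 and S100a8 are small calcium-binding proteins that pair as calprotectin, which makes up a large share of the protein in the cytoplasm of a neutrophil and binds zinc and manganese away from microbes. A neutrophil makes its other arms in waves as it matures in the bone marrow: primary granule enzymes first, then the proteins of secondary and tertiary granules, and last the receptors that let the mature cell leave the marrow and find its targets. In the mouse, bone marrow of the skull lies next to the dura, the outer meningeal layer, and is linked to it by channels through the bone.

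The promoters of 5 genes are shown first: S100a9, which made the ranking, and S100a8, Camp, Mmp8 and Retnlg, the neutrophil genes that entered the fit and whose high and low libraries did not overlap. S100a9 and S100a8 are neighbours on chromosome 3, with 0 genes between them in the RefSeq annotation. Each window runs from 250 bases before to 50 bases after the annotated start, 5′ to 3′ on the gene's strand, from RefSeq on GRCm38.p6: S100a9 at chr3:90695672-90695971 on the minus strand, S100a8 at chr3:90668821-90669120 on the plus strand, Camp at chr9:109849407-109849706 on the minus strand, Mmp8 at chr9:7558179-7558478 on the plus strand and Retnlg at chr16:48872358-48872657 on the plus strand. Capitals mark every match, on either strand, to TTGCNNAA, letters bound by C/EBP factors, or to AGGAAGT, letters bound by PU.1 and other ETS factors.
S100a9: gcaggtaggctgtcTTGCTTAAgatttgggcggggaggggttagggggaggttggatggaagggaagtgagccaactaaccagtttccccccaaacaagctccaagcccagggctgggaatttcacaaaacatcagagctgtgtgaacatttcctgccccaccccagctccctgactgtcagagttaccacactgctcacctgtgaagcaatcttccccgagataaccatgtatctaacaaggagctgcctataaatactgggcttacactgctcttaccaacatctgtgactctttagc
S100a8: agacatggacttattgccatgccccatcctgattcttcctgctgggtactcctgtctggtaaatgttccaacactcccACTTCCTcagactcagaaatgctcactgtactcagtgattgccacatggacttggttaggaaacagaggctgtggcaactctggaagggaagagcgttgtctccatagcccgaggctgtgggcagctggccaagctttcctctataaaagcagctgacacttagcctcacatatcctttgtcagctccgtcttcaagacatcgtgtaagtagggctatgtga
Camp: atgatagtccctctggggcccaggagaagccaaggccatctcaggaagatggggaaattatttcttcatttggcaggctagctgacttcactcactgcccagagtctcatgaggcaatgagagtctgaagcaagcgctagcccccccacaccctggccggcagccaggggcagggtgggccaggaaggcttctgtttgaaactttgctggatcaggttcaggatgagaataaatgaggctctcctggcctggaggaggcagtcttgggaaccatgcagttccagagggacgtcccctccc
Mmp8: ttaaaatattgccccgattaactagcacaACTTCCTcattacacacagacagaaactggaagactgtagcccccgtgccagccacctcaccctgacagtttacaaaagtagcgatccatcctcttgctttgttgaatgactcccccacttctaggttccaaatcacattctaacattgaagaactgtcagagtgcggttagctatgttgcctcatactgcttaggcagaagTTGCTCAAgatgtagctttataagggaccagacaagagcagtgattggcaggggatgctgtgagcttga
Retnlg: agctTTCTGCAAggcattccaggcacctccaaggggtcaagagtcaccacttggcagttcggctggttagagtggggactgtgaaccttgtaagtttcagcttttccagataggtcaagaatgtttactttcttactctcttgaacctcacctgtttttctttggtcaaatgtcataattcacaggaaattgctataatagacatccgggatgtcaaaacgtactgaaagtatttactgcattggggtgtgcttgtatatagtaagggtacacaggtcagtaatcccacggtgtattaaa
The S100a9 window held 1 match to the C/EBP letters and the S100a8 window 1 match to the ETS letters. The Mmp8 window held 1 of each and the Retnlg window 1 C/EBP match, while the Camp window held 0 matches to either. Of 40 genes, S100a9 and the 39 on the neutrophil lists, 35 matched a RefSeq promoter window. The C/EBP letters were in the windows of 10 of these 35 genes (28.6%), against 10.8% of all 32851 windows. The ETS letters were also in 10 of 35 (28.6%), against 9.35% of all windows. No test was made of these shares, and a match of letters is a description, not a site.

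S100a8, the partner of S100a9 in calprotectin, stood at 12.88, 13.25, 12.02 and 11.43 in the libraries high in S100a9, against 9.23, 8.94, 0 and 7.89 in the libraries low in S100a9. The 2 sets did not overlap, and the 4 libraries between stood at 10.76, 10.73, 7.85 and 11, below every library of the high set. Its mean was 12.39 ± 0.82 in the high set and 6.51 ± 4.38 in the low set (SD, n = 4 each), and the low mean rests in part on AD_TG replicate 4, where S100a8 had no reads while S100a9 stood at 8.54. Within AD_TG, the 1 high library lay 8.26 above the mean of 2 low ones, and within SJL_B6 the 1 high library lay 3.01 above the mean of 2 low ones. The neutrophil genes are known to go with the gene that made the ranking, so they are described by their values with no p beside them. Those past the filter still count among the genes fitted and in the counts of genes that passed. In whole tissue or sorted bulk RNA, more neutrophils and more RNA per neutrophil cannot be told apart.

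**Figure D1:**
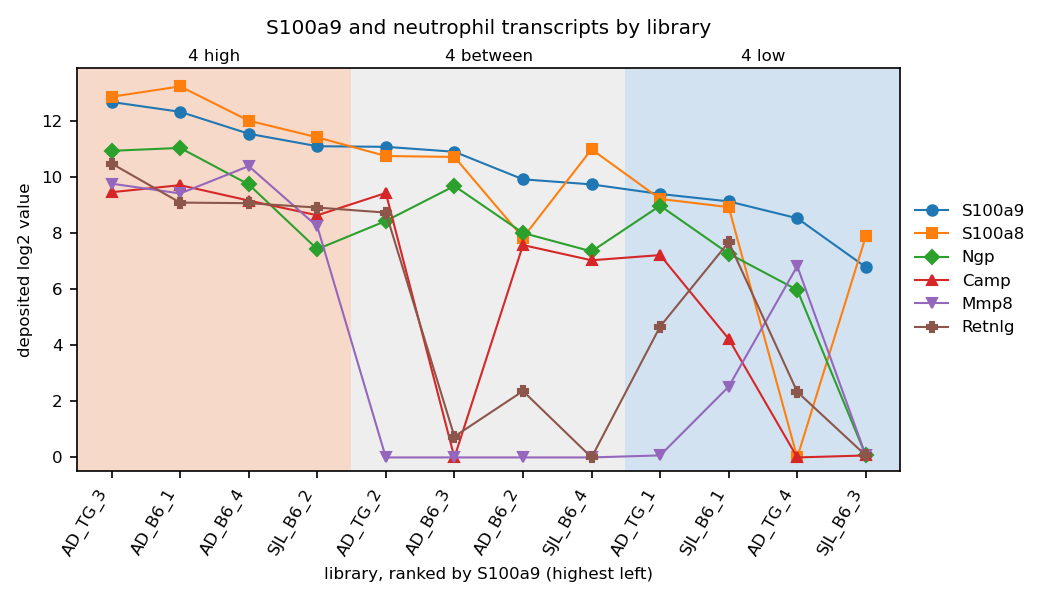
Deposited log2 value (vertical axis) of S100a9 and 5 neutrophil transcripts in the 12 libraries, ranked by S100a9 with the highest at the left; each point is 1 library, and lines only join the points of a gene. S100a8, Camp, Mmp8 and Retnlg have all 4 high libraries above all 4 low libraries, and Mmp8 stands at 0 in the 4 libraries between.

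Across all genes the ranking left few traces that could be told from the spread. Of 11954 genes tested with limma, 0 passed a Benjamini-Hochberg adjusted p of 0.05 (0% of genes), and the lowest adjusted p was 0.757. At an unadjusted p below 0.05, 159 genes were higher (1.33%) and 375 lower (3.14%) in the libraries high in S100a9, 534 in all, where 597.7 would be expected with no difference. When each library was centred on its mean, the same counts were 294 higher and 239 lower, so the balance towards lower genes depends on the scaling. The 4 high libraries lay above all 4 low libraries for 160 genes (1.34%) and below all 4 for 248 genes (2.07%). The median difference over all tested genes was -0.15 (log2), and 5355 genes had the higher mean in the high set. The precision limits what could be called: the median half-width of the 95% interval of a difference was 3.84 (log2), falling to 0.93 in the 966 genes whose mean reached 10.

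Proteins of the secondary and tertiary granules made the clearest set beside S100a8. Camp, the precursor of the antimicrobial peptide cathelicidin, stood at 9.47, 9.72, 9.17 and 8.65 in the libraries high in S100a9, against 7.22, 4.23, 0 and no reads in the libraries low in S100a9. Mmp8, the neutrophil collagenase, stood at 9.77, 9.42, 10.40 and 8.25 in the high set, against 2.53 in SJL_B6 replicate 1, 6.83 in AD_TG replicate 4 and no reads in the other 2 low libraries. Neither gene overlapped between the sets, and Mmp8 had no reads in any of the 4 libraries between, so its values do not follow the ranking below the high set. The difference of means was 6.37 for Camp and 7.09 for Mmp8 (log2). Within AD_TG the high library lay 5.86 above the mean of the low ones for Camp and 6.32 for Mmp8, and within SJL_B6 it lay 6.49 above for Camp and 6.95 for Mmp8.

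Ngp, the neutrophilic granule protein, stood at 10.95, 11.05, 9.75 and 7.44 in the libraries high in S100a9, against 8.99, 7.28, 5.98 and no reads in the libraries low in S100a9. The sets overlapped through SJL_B6 replicate 2, the lowest of the high libraries, and the 4 libraries between ran from 7.36 to 9.69. Its difference was 3.46 within AD_TG and 3.76 within SJL_B6. Ltf, lactoferrin, stood at 9.03, 8.26, 6.63 and 6.28 in the high set, against reads in AD_TG replicate 4 at 6.77 and SJL_B6 replicate 3 at 6.88 alone in the low set. Lcn2, which binds bacterial iron carriers, ran from 8.42 to 9.53 in the high set and from 2.53 to 8.50 in the low set, an overlap through AD_TG replicate 1. Mmp9, the gelatinase of tertiary granules, ran from 8.24 to 9.42 in the high set, against 7.46 to 9.93 in 3 low libraries and no reads in SJL_B6 replicate 1. Chil3, a chitinase-like protein that macrophages make as well, ran from 4.82 to 6.70 in the high set, and its highest value of all, 8.05, was in the low library AD_TG replicate 1. Cd177, a surface and granule protein, had reads in 2 high libraries, 0 low ones and 1 between.

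Primary granule enzymes were read in few libraries. Mpo, myeloperoxidase, had reads at 5.43 in AD_TG replicate 3 and 7.09 in AD_B6 replicate 4 of the high set, in 0 libraries of the low set and at 4.97 in AD_TG replicate 2, between them. Elane, neutrophil elastase, had reads in the high libraries AD_B6 replicate 1 at 7.62 and AD_B6 replicate 4 at 6.997, and in the low library SJL_B6 replicate 1 at 5.15. Prtn3, proteinase 3, had reads at 4.77 and 6.66 in the same 2 AD_B6 libraries and in no other library. Ctsg and Ms4a3 had no reads anywhere, and none of the 5 genes of this list reached the level needed for the fit.

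The receptors and adhesion molecules of mature neutrophils had higher means in the libraries high in S100a9, by less. Of 12 found, 11 had reads in at least 1 library, and all 11 had the higher mean in the high set, with a median difference of 2.09 (log2). Csf3r, the receptor for the growth factor G-CSF, stood at 7.32, 3.72, 1.87 and 1.26 in the high set, against 1.14 in SJL_B6 replicate 1 and no reads in 3 low libraries, and fell below the filter of the fit. Its lowest high value stands for about 2 reads and its highest low value for about 1. Cxcr2, the receptor for neutrophil-attracting chemokines, stood at 4.68, 6.37, 2.31 and 3.13 in the high set, against 1.49, 1.76, 1.78 and 2.99 in the low set, so the sets overlapped. The formyl peptide receptors, which sense bacterial peptides, were uneven: Fpr1 had reads in 3 high and 2 low libraries, and Fpr2 in 3 high and 2 low libraries. Trem1, an amplifier of inflammatory signals, ran from 6.56 to 8.23 in 3 high libraries with no reads in AD_B6 replicate 4, and stood at 7.23 in the low library SJL_B6 replicate 3 alone. Clec4d, a C-type lectin, had reads in 2 high and 2 low libraries.

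The chains of the integrin Mac-1, which monocytes and macrophages carry as well, were read in all 12 libraries. Itgam stood at 10.79, 9.27, 9.02 and 10.29 in the libraries high in S100a9, against 9.99, 3.81, 10.13 and 9.74 in the libraries low in S100a9. Without the low value of SJL_B6 replicate 1, its low libraries lay within the range of the high ones. Itgb2 stood at 10.06, 9.14, 9.13 and 9.49 in the high set, against 8.70, 7.34, 8.77 and 9.24 in the low set, which overlap. Neither gene separated the sets.

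Among cytoplasmic and secreted products, Retnlg, a resistin-like protein of neutrophils, stood at 10.49, 9.10, 9.08 and 8.92 in the libraries high in S100a9, against 4.67, 7.69, 2.34 and no reads in the libraries low in S100a9. The sets did not overlap, but the library between them with the most S100a9, AD_TG replicate 2, had 8.74 while the other 3 between had 2.37 or less. Its difference was 6.99 within AD_TG and 5.04 within SJL_B6. Wfdc21, a small secreted protein with a protease inhibitor fold, stood at 8.78, 9.24, 3.82 and 6.30 in the high set, against 4.21 in AD_TG replicate 1 and no reads in the other 3 low libraries. Padi4, which converts histone arginine to citrulline, stood at 7.87 and 6.73 in AD_TG replicate 3 and AD_B6 replicate 1 of the high set. It stood at 0.75 or less in the other 2 high libraries, against 1.47 or less in the low set. Its highest value of all, 8.26, was in AD_B6 replicate 2, between the sets. The mean of the libraries between, 4.40, was above the high mean of 3.85, so Padi4 did not follow S100a9. Hdc, histidine decarboxylase, which makes histamine in mast cells and basophils too, ran from 7.95 to 9.12 in the high set and from 7.64 to 9.43 in the low set. Lrg1, a glycoprotein that endothelium also makes, ran from 8.58 to 9.13 in 3 high libraries with no reads in AD_B6 replicate 4, against 4.67 to 9.38 in the low set. G0s2, an inhibitor of fat breakdown, ran from 6.16 to 8.56 in the high set and from 4.12 to 9.27 in the low set. Msrb1, which repairs oxidised methionine, ran from 7.13 to 9.51 in the high set and from 6.81 to 9.61 in the low set.

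Counted over all 39 symbols of the neutrophil lists, 38 were in the files and Ly6g, a surface marker of mouse neutrophils, was not analysed here. Of the 38, 35 had reads in at least 1 library, 33 of these had the higher mean in the libraries high in S100a9 and 2, Hdc and Lrg1, the lower mean, with a median difference of 2.86 (log2). Over all 17255 genes other than S100a9 with reads in any library, these included, 43.5% had the higher mean in the high set, and the median difference was -0.12. All 4 high libraries lay above all 4 low ones for 5 of the 38, against 169 of the 17255 genes (0.979%), values under 1 read being set to 0. The 5 were S100a8, Camp, Mmp8, Retnlg and Csf3r, of which Csf3r rests on 1 read of difference. Together the lists held 0.321, 0.328, 0.157 and 0.136% of the linear total in the high set, against 0.0737, 0.0343, 0.0457 and 0.0569% in the low set, and from 0.0329 to 0.107% in the libraries between. From 22 to 29 of the 38 had reads in a high library, against 13 to 20 in a low one. The lists hold genes known to go with S100a9, so their direction is a description of what the ranking captured.

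**Figure D2:**
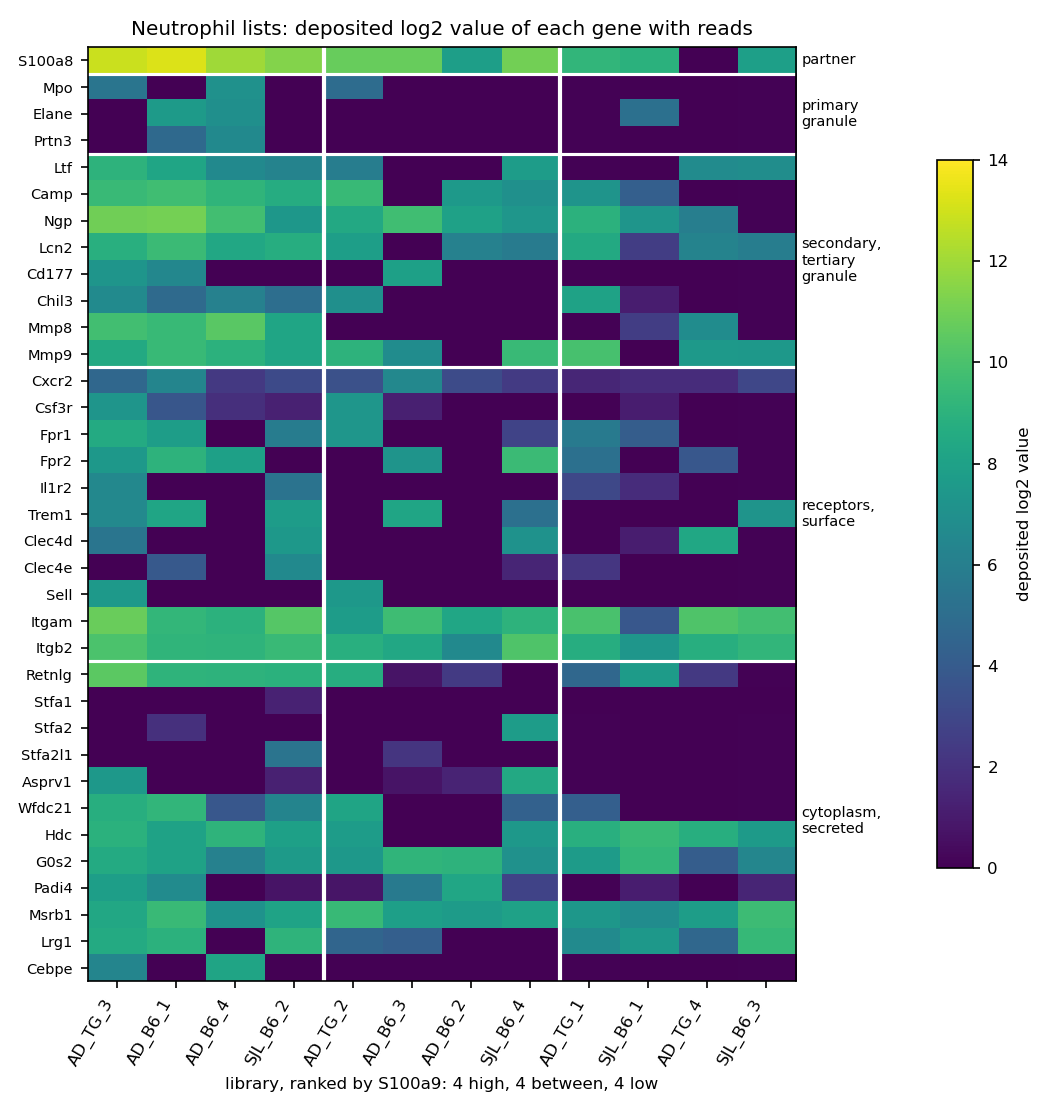
Deposited log2 value (colour) of the 35 neutrophil list genes with reads (rows, by list) in the 12 libraries (columns, ranked by S100a9 with the high set left); white lines part the sets and the lists. S100a8, Camp, Mmp8 and Retnlg have reads in all 4 high libraries and in 2 or 3 low ones, while Itgam, Itgb2, Hdc and Msrb1 have reads in all 4 libraries of both sets.

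Genes that act with neutrophils but are shared with other cells had medians below that of all genes, and none passed the test. Of the 5 tested subunits of the phagocyte NADPH oxidase, the enzyme of the oxidative burst, 1 had the higher mean in the libraries high in S100a9, and the median difference was -0.21, which turned to 0.09 when libraries were centred on their means. Cybb, its catalytic chain, ran from 8.22 to 9.98 in the high set and from 9.15 to 10.31 in the low set. Of 10 chemoattractants and cytokines, 8 had reads and 4 were tested. Il1b ran from 6.53 to 8.61 in the high set and from 5.63 to 9.72 in the low set. Cxcl2, a ligand of Cxcr2, had reads in 2 high and 2 low libraries. Csf3 and Il6 had no reads anywhere. Among endothelial adhesion genes, Sele, the selectin that slows rolling neutrophils, had reads in 2 low libraries and no others, while the median difference of the 6 tested was -0.75. F11r, a junction protein that leukocytes pass, ran from 8.92 to 9.48 in the high set, below 9.90 to 10.57 in the low set. Vcam1 ran from 8.89 to 11.13 in the high set and from 9.95 to 10.95 in the low set.

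By list median, other blood and immune cells differed less than the secondary and tertiary granule genes, whose median was 4.11. The median was 1.18 for 5 mast cell and basophil genes, 3 of them with the higher mean in the high set, and -0.81 for 4 dendritic cell genes. Gata2, on the mast cell and basophil list, ran from 8.71 to 9.54 in the high set, above 6.29 to 8.29 in the low set. None of the genes named here passed the limma test at an adjusted p of 0.05. Border macrophages, the resident phagocytes of the meninges, overlapped between the sets: 3 of 14 genes had the higher mean in the libraries high in S100a9, and the median difference was -0.16, against -0.15 for all genes. Csf1r, the macrophage growth factor receptor, stood at 12.29, 12.74, 11.83 and 13.10 in the high set, against 12.41, 13.24, 12.49 and 12.68 in the low set. The list held 0.257 to 0.678% of the linear total in the high set and 0.438 to 0.481% in the low set, a larger share than the neutrophil lists. The median difference was 0.08 for 7 monocyte genes and -0.05 for 7 MHC class II genes. Lyz2, the lysozyme of monocytes, macrophages and neutrophils alike, ran from 9.91 to 11.68 in the high set and from 9.22 to 10.94 in the low set. Of 9 tested erythroid genes, 7 had the higher mean in the high set, with a median of 0.92. Hbb-bs, a beta globin, stood at 10.54, 12.002, 13.91 and 11.91 in the high set, against 10.14, 11.39, 10.71 and 11.99 in the low set, so the highest library was AD_B6 replicate 4. Without AD_B6 replicate 4 the erythroid median was 0.24. Of 12 genes of B cells and their precursors, 10 had reads, and 8 of them had the higher mean in the high set. Jchain, the joining chain of secreted antibodies, ran from 7.36 to 10.59 in the high set and from 2.91 to 9.07 in the low set, with an adjusted p of 0.9999 by limma.

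A shift outside the neutrophil lists lay in transcripts of the choroid plexus, the tissue in the brain's ventricles that secretes cerebrospinal fluid. Of 8 genes tested, 7 had the lower mean in the libraries high in S100a9, 6 of these at an unadjusted p below 0.05, against 3.14% of all tested genes, and the median difference was -2.72 (log2). None of the 8 passed the adjusted threshold, and none separated the sets. Ttr, transthyretin, the carrier of thyroid hormone, stood at 16.59, 13.92, 19.18 and 13.38 in the high set, against 18.63, 18.51, 18.70 and 18.13 in the low set, with a limma adjusted p of 0.757. AD_B6 replicate 4 thus had the highest Ttr of these 8 libraries and the other 3 high libraries the lowest. The difference was -2.08 within AD_TG and -4.94 within SJL_B6. Enpp2, autotaxin, likewise was highest in AD_B6 replicate 4 and lowest in the other 3, at 14.50, 11.87, 17.42 and 11.86 in the high set, against 16.86, 16.28, 16.83 and 16.50 in the low set. Kcnj13, a potassium channel, had no reads in AD_B6 replicate 1 and SJL_B6 replicate 2 of the high set, and stood at 9.18 and 11.25 in the other 2, against 9.66 to 10.89 in the low set. Otx2, a transcription factor that the pineal gland uses too, was the exception, at 10.61 to 11.90 in the high set and 11.01 to 11.59 in the low set.

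The list held 2.003, 0.383, 11.1 and 0.292% of the linear total in the high set, against 7.39, 5.93, 8.17 and 5.68% in the low set, and 3.27 to 7.67% in the libraries between. Without AD_B6 replicate 4, 9 genes passed the adjusted threshold, all lower in the high set, and they included Ttr with an adjusted p of 6.4e-05 and Enpp2 with 4.0e-05 in limma. The other 7 were F5, Sostdc1, Slc22a17, Pcsk2, Fxyd1, Tfdp2 and Atp2b3. F5, coagulation factor V, stood at 9.08, 6.66, 12.29 and 1.93 in the 4 high libraries, against 12.28, 12.04, 11.59 and 12.44 in the low set, so it too was high in AD_B6 replicate 4. Sostdc1, a secreted antagonist of BMP and Wnt signals, stood at 9.16, 5.53, 12.72 and 1.26 in the high set, against 12.03, 10.71, 12.20 and 11.36 in the low set. The files were also split by their form, described at the end. Ttr was -0.54 and Enpp2 -0.59 in 2 high against 3 low files that list small values, and -5.06 and -4.96 in 2 high against 1 low file that list zeros. The 2 high files with small values were AD_TG replicate 3, with Ttr at 16.59, and AD_B6 replicate 4, at 19.18. This split is therefore not separate from AD_B6 replicate 4. The part of choroid plexus RNA in the other differences was not tested.

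**Figure D3:**
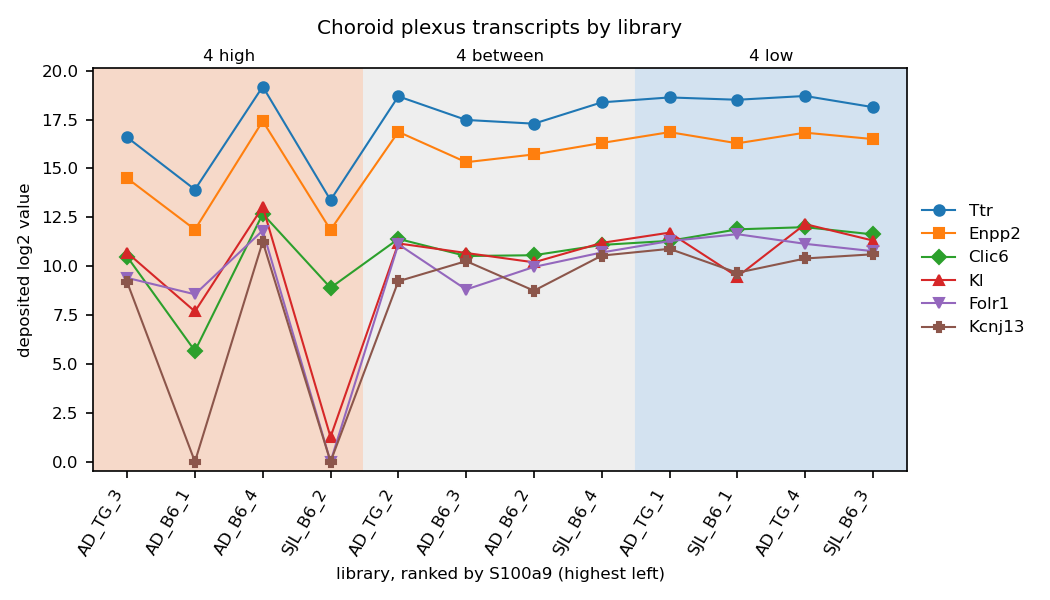
Deposited log2 value (vertical axis) of 6 choroid plexus transcripts in the 12 libraries, ranked by S100a9 with the highest at the left; each point is 1 library, and lines only join the points of a gene. Ttr stands at 16.59, 13.92 and 13.38 in 3 high libraries and at 19.18 in AD_B6 replicate 4, against 18.13 to 18.70 in the low set.

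Of the listed genes of structural meningeal cells, none passed the adjusted threshold. The mean log2 of the lymphatic endothelial list was 4.86 to 5.59 in the high set, below 6.22 to 6.95 in the low set. The pan-endothelial list (4.23 to 4.56 against 5.16 to 6.96) and the mural list (4.25 to 5.62 against 6.02 to 7.44) also lay lower. Their shares of the linear total overlapped, at 0.0433 to 0.0764% against 0.0483 to 0.0757% for the lymphatic list. These list values were not tested. Of 9 tested lymphatic endothelial genes, 3 had the higher mean in the libraries high in S100a9, with a median of -0.69. Flt4, the receptor for VEGF-C, had reads in 1 high library, at 7.33, against 5.27 to 8.82 in all 4 low libraries. Lyve1, which macrophages of the border carry as well, ran from 8.53 to 10.39 in the high set and from 7.47 to 8.90 in the low set. Of 11 genes of all endothelium, 2 had the higher mean, with a median of -1.39. Kdr, the main VEGF receptor of blood vessels, ran from 7.19 to 8.14 in the high set, below 8.47 to 9.997 in the low set, while Eng, a co-receptor of the TGF-beta family, ran from 7.66 to 9.66 in the high set, above 2.19 to 7.37 in the low set. Among 7 mural genes, Pdgfrb, the PDGF receptor of pericytes and fibroblasts, stood at 9.36, 8.38, 9.48 and 9.98 in the high set, against 8.06, 6.08, 7.29 and 2.98 in the low set. Its difference was 3.20 (log2) with a limma adjusted p of 0.9999, and the sets did not overlap. Acta2, smooth muscle actin, ran from 8.06 to 9.50 in the high set and from 9.61 to 10.20 in the low set. The medians of the pan-endothelial and mural lists turned to 0.62 and 0.26 among genes with reads in all 12 libraries. Of 11 fibroblast genes, 8 were higher in mean, with a median of 0.22. Col1a1, a chain of type I collagen, ran from 12.21 to 13.72 in the high set and from 12.51 to 12.996 in the low set.

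**Figure D4:**
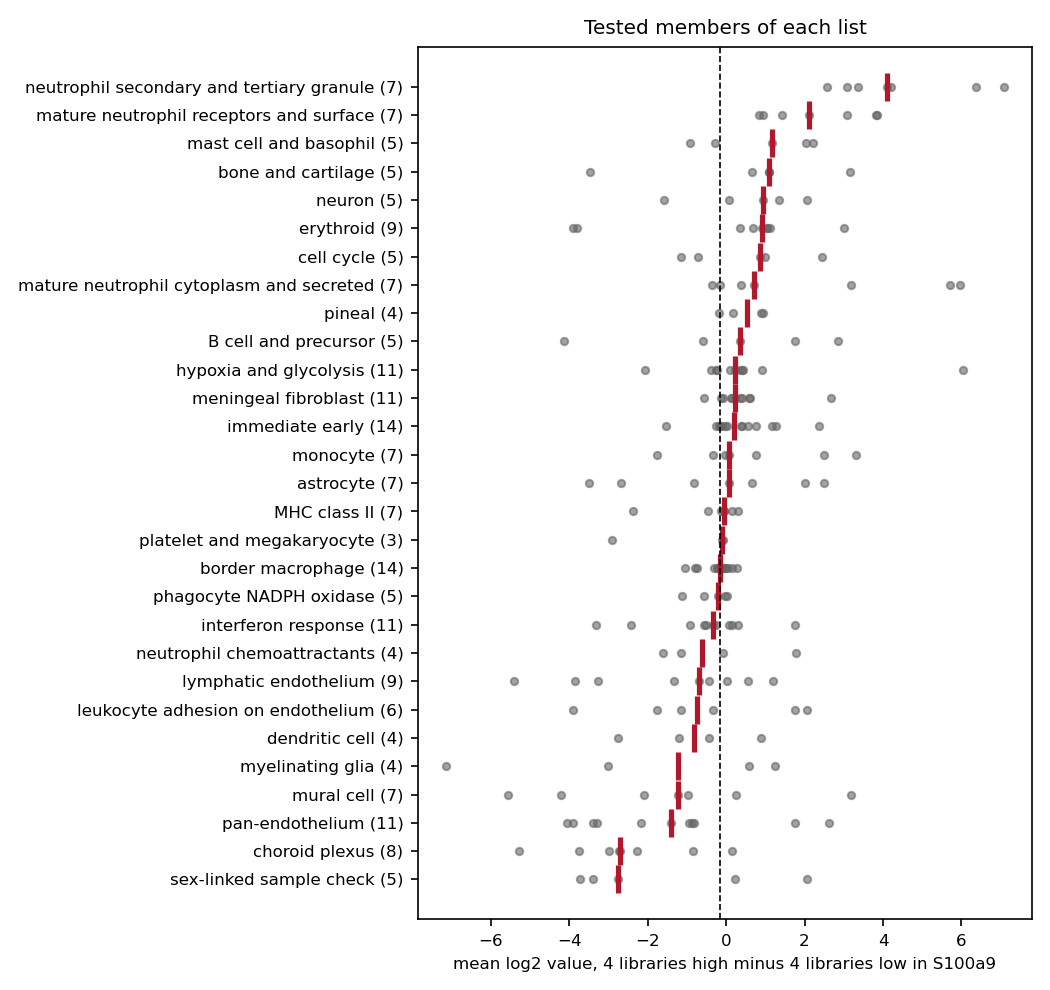
Difference in mean log2 value, libraries high minus libraries low in S100a9 (horizontal axis), for each tested member (grey points) of each list with at least 3 tested members (number in brackets); red bars are list medians and the dashed line is the median of all tested genes, -0.15. The medians run from 4.11 for secondary and tertiary granules to -2.77 for the sex-linked list, next to -2.72 for the choroid plexus.

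Over all genes, those that separated the sets were few and did not pass the test. Whether neutrophils express the genes named below was not looked at. Among 3774 genes with a mean of at least 8, 69 lay higher (1.83%) and 67 lower (1.78%) in all 4 high libraries, against 1.34% and 2.07% of all tested genes, and those with the smallest unadjusted p are given, 11 higher, S100a8 among them, and 12 lower. The 10 others that were higher had differences of 1.05 to 3.13 (log2) and limma adjusted p from 0.864 to 0.9999. Chgb, a chromogranin of secretory granules in nerve and endocrine cells, stood at 13.83, 14.10, 13.07 and 14.57 in the libraries high in S100a9, against 12.21, 13.02, 12.94 and 12.57 in the libraries low in S100a9. Slc6a11, a transporter that clears the neurotransmitter GABA, stood at 10.75, 9.95, 9.73 and 11.16 in the high set, against 8.36, 9.46, 7.59 and 6.38 in the low set. Bcat1, which breaks down branched-chain amino acids, ran from 9.59 to 10.55 in the high set and from 6.58 to 9.05 in the low set. Rom1, a membrane protein of photoreceptor discs, ran from 10.93 to 11.54 in the high set and from 9.77 to 10.79 in the low set, but from 11.17 to 12.40 in the libraries between, so it did not follow S100a9. The others were Sep15, Plekhb1, Cfap20, Spink4, Cnnm3 and Tle3. For 8 of the 10, the mean of the 4 libraries between lay between those of the sets. Of 5 tested neuron genes, 4 had the higher mean in the high set and 1 the lower, with a median of 0.93. Of 4 tested pineal genes, 3 had the higher mean and 1 the lower, with a median of 0.53. Over all tested genes 44.8% had the higher mean, and no gene of either list passed the adjusted threshold.

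The 12 genes that were lower had differences of -0.69 to -2.97 (log2) and limma adjusted p from 0.793 to 0.9999. Aup1, which serves lipid droplets and the removal of misfolded proteins, stood at 8.57, 4.72, 7.35 and 8.05 in the libraries high in S100a9, against 10.07, 10.88, 9.65 and 9.99 in the libraries low in S100a9. Cdkn1a, the cell cycle inhibitor p21, stood at 8.001, 8.66, 6.95 and 8.11 in the high set, against 9.61, 10.43, 10.90 and 9.35 in the low set. Itgb1, the common integrin beta chain, ran from 9.64 to 10.43 in the high set and from 10.97 to 11.63 in the low set. Timp2, an inhibitor of matrix metalloproteinases and the most abundant of the 12, ran from 12.55 to 13.27 in the high set and from 13.37 to 14.24 in the low set. The others were Kdm5b, Atp6v0e, Itpr1, Cped1, Dos, Zfc3h1, Naa35 and Gcc2. For 10 of the 12, the libraries between lay between the sets in mean.

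**Figure D5:**
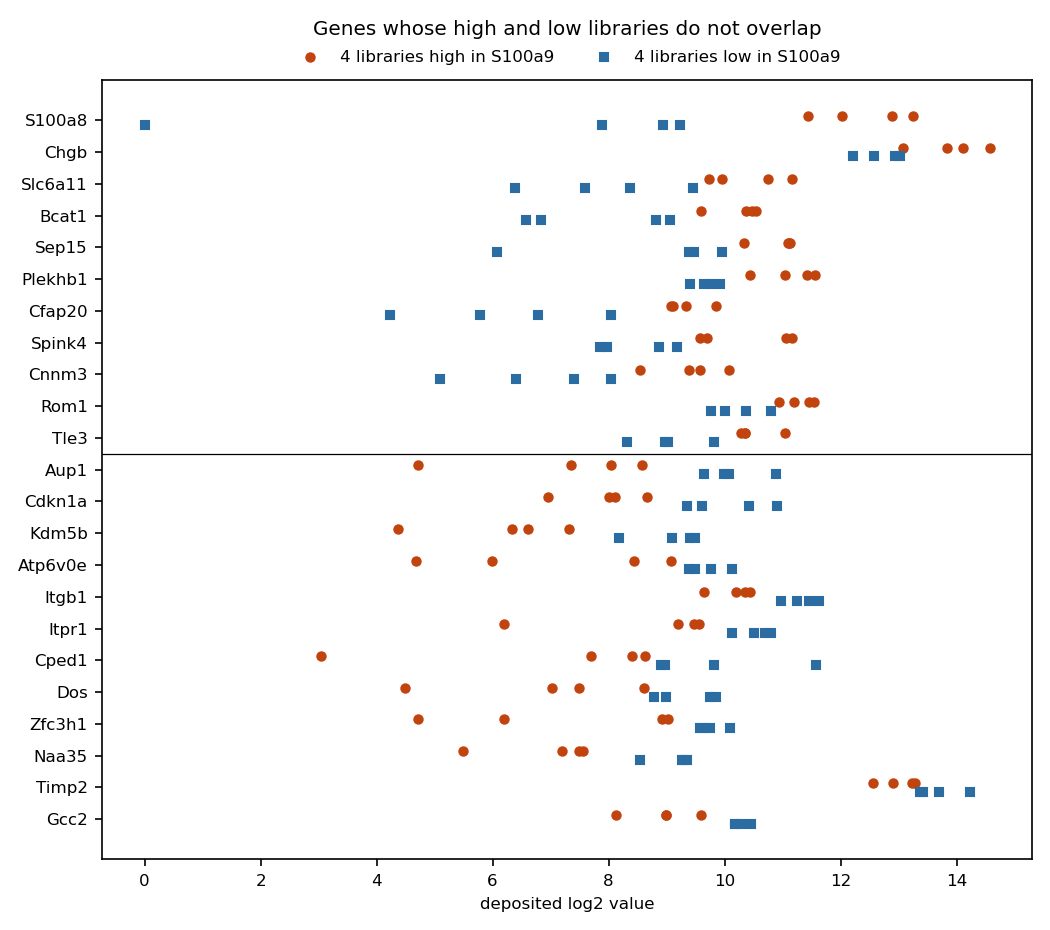
Deposited log2 value (horizontal axis) of the 11 genes higher (top) and the 12 lower (bottom) in the libraries high in S100a9 that were named by their order of unadjusted p; circles are the 4 high libraries and squares the 4 low ones, drawn above and below the line of each gene. Every gene was chosen for sets that do not overlap, and none passed the adjusted threshold.

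Technical measures of the libraries overlapped between the sets, but the linear total, genes with reads, Malat1 and Rn45s had the lower mean in the high set. The linear total averaged 6632961 ± 370125 in the high set and 7236452 ± 463003 in the low set (SD, n = 4 each; exact permutation p = 0.0857, adjusted p = 0.190). Estimated assigned reads ran from 5474852 to 9286754 in the libraries high in S100a9 and from 4012422 to 8410828 in the libraries low in S100a9, with p = 0.457 in an exact two-sided permutation test of 4 against 4, whose smallest p is 0.0286. Genes with reads numbered 11156 ± 510 in the high set and 11814 ± 361 in the low set (SD, n = 4 each; exact permutation p = 0.114, adjusted p over 5 measures = 0.190). Malat1, a nuclear RNA, averaged 15.96 ± 0.58 in the high set and 16.78 ± 0.33 in the low set (SD, n = 4 each; exact permutation p = 0.0571, adjusted p = 0.190). Rn45s, the ribosomal RNA precursor, averaged 18.82 ± 0.39 in the high set and 19.49 ± 0.76 in the low set (SD, n = 4 each; exact permutation p = 0.2, adjusted p = 0.25). Some files list genes without reads at a small value above 0: 2 of 4 in the high set, 3 of 4 in the low set and 0 of 4 between. Among these files alone, S100a8 was 3.76 higher in 2 high than in 3 low libraries, and Camp 5.48 higher. Sex-linked genes, a check of the samples, also differed in mean, with a median of -2.77 over 5 genes, none past the limma threshold. Xist, the RNA of the silenced X chromosome, had 1.93 and 1.26 in AD_B6 replicate 1 and SJL_B6 replicate 2 and no reads in the other 2 high libraries, against 7.58, 4.04, 0 and 6.47 in the low set. Ddx3y, on the Y chromosome, was read in all 12 libraries, from 9.48 to 10.24 in the high set and from 8.18 to 10.36 in the low set. Eif2s3y had reads at 8.25, 3.62 and 4.97 in 3 high libraries, against 8.31, 8.69, 7.61 and 5.85 in the low set. Uty ran from 0 to 6.78 in the high set and from 5.83 to 6.95 in the low set, and Kdm5d had reads in 3 high and 3 low libraries. Ddx3y differed by 0.22 (log2). The part of these measures in the differences was not tested.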

How the data were processed

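Each library has 1 file of 23282 entries, which the authors deposited as log2 values for gene symbols. On the linear scale the values lie on even steps, which fits log2(x + 1) of scaled read numbers; the scaling is not given in the sources used here. The submitters' processing notes list bedtools, Bowtie2 and a human build, hg19. Libraries were made from total RNA with a Lexogen QuantSeq kit, per the labels' protocols. For 35 symbols listed more than once, only the entry of highest mean was used. The step of each file, from 0.698 to 1.755, was taken as 1 read; the linear total over the step estimates 4012422 to 9315043 reads per library, and a linear value of 0.3 or more counted as reads.

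Genes that reached 10 on the linear scale in 4 or more of 12 libraries were fitted with limma 3.58.1 in R 4.3.3 (lmFit, eBayes with trend), 12 libraries at 3 levels of S100a9, high minus low, two-sided, Benjamini-Hochberg over 11954 genes; S100a9 was left out. A count model was not used, as the files hold no counts. The p-values test going with S100a9, not the study's groups. Library measures were compared with exact permutation tests. The fit was tested on simulated data. Named were neutrophil list genes with reads in at least 6 libraries, up to 4 members of highest mean per other list, and per direction the 12 genes of smallest unadjusted p with a mean of 8 or more whose sets do not overlap, 1 of which is not reported here; other genes named as examples, such as F5 and Flt4, were picked with their values known. The genes, lists and comparison were chosen with earlier results of these data known. Alternatives were other filters, pseudocounts, centring, quantile normalization, moderation, terms for label group, replicate number and file form, and leaving out each library.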

Additional observations from a re-analysis of the deposited data

Results flagged for a closer look

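In sets of 4 libraries, 1 value sometimes stood far from the other 3, by a gap that chance gives in about 1 of 20 sets. Among 108 sets looked at for 49 genes, 14 values did so, values under 1 read being set to 0. The 1 in 20 does not hold for sets with values at 0. For Csf3r, Wfdc21 and Trem1 in the low set the other 3 values were 0, so any value with reads was flagged. Among neutrophil genes in the libraries high in S100a9, Retnlg was far above the others in AD_TG replicate 3 at 10.49, and Lrg1 was far below them in AD_B6 replicate 4 at 0. In the libraries low in S100a9, S100a8 was far below the others in AD_TG replicate 4 at 0 and Itgam in SJL_B6 replicate 1 at 3.81. Far above the others in the low set were Chil3 and Wfdc21 in AD_TG replicate 1 at 8.05 and 4.21, Csf3r in SJL_B6 replicate 1 at 1.14 and Trem1 in SJL_B6 replicate 3 at 7.23.

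Among the other named genes in the high set, Sep15 was far below the others in AD_B6 replicate 1 at 10.34, Tle3 far above them in the same library at 11.04, Itpr1 far below them in SJL_B6 replicate 2 at 6.19 and Cped1 far below them in AD_TG replicate 3 at 3.04. In the low set, Sep15 was far below the others in SJL_B6 replicate 1 at 6.08 and Naa35 in SJL_B6 replicate 1 at 8.54.

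The high library differed from both low libraries in opposite directions within SJL_B6 and within AD_TG for 2 genes, a contrast that was not tested. Padi4 was -0.55 (log2) in SJL_B6 and 7.87 in AD_TG, high minus low, but each of the SJL_B6 values stands for about 1 read, so the sign there rests on what 1 read is worth in each file. For Otx2 the difference was 0.79 in SJL_B6 and -0.72 in AD_TG.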

How the results depend on the processing

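The count of 0 genes past the adjusted threshold became 1 with a term for file form, chosen after seeing the data, and with a pseudocount of 10, S100a8 in both. With a pseudocount of 100 it became 6: S100a8 higher, and F5, Prlr, Enpp2, Ttr and Car12 lower. With eBayes without trend it became 10, 1 higher and 9 lower. Leaving out 1 library in turn gave 0 to 9, with 9 without AD_B6 replicate 4 and 1, Rn45s lower, without AD_TG replicate 4. Replicate numbers do not pair the libraries: correlations of deviations within the same number ran from -0.015 to 0.067 over 12 pairs. A replicate block gave 1 gene, S100a8. In all of these counts S100a8 is no independent support, since it is known to go with the ranking gene.

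Genes higher at an unadjusted p below 0.05, 159, became 246 with no filter, 90 for genes with reads in all 12 libraries and 294 with centring on the mean, and 121 to 218 without 1 library. Genes lower, 375, became 138 for genes with reads in all 12 libraries and 239 with centring on the mean, and 244 to 460 without 1 library, the lowest without AD_TG replicate 1. Centring on the mean moved the median of all genes to 0.15. A slope on S100a9 over all 12 libraries called 0 genes, with a lowest limma adjusted p of 0.0671. That was also the lowest limma adjusted p of Ngp, a neutrophil gene known to go with S100a9, over the alternatives.

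The 616 alternative values of the 22 other named genes kept their direction and their side of the threshold. These genes were chosen for sets that do not overlap, and their limma adjusted p in the main fit was 0.793 or more. The choice thus largely fixed this outcome, which is no independent support. Of 681 values of neutrophil and choroid plexus genes, 9 moved by more than the spread, 8 of them smaller under a larger pseudocount, and Hdc turned to 1.70 with a label group term. A change of sign within the spread was not counted as a move, here or for list medians. Lrg1, lower in the main fit, was higher in 6 of 27 alternatives, and Hdc in 4 of 27. Otx2 turned lower in 4 of 28 alternatives, and Itgam, G0s2 and Msrb1 in 1 of 28 each. Of 836 list medians, 29 moved. Precision is limited by depth and by 4 libraries a set: 4949 of 11954 tested genes had reads in every library.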
